A study of Mus musculus with 6 samples.

Results

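The entries mmu-miR-6366, mmu-miR-3963, mmu-miR-8110 and mmu-miR-5100 were among the 5 brightest of the miRNAs measured in tumours of C57BL/6 mice that carried Hepa1-6 cells, a mouse hepatoma line. They are 4 of the 1881 mouse miRNAs on the array and 4 of the 388 that were bright enough to test. They were picked by name from the arrays' own annotation, because of their signal over all 6 arrays, so their brightness describes the choice and is not a finding. The GLE group held 3 mice given an agent that the labels call GLE without spelling it out, at a daily 0.023 g scaled to a 10 g mouse. The model group held 3 mice given 0.2 ml of 0.9% saline daily for 28 days, a length that the labels state for the saline alone, while they give 28 d as the age of all 6 samples. All 6 mice carried tumours from Hepa1-6 cells inoculated in the right flank, and no tumour-free or pre-treatment mice are part of the comparison. Each array held the total RNA of 1 tumour, so a change in the number of cells of a type and a change in the RNA of each cell cannot be told apart.

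A microRNA (miRNA) is a short RNA cut from a hairpin precursor and loaded onto an Argonaute protein, which it guides to messenger RNAs that pair with its seed, bases 2 to 8 of the mature strand. miRBase, the registry of miRNAs, numbers entries in order of submission, so a high number marks a name given late, mostly from sequencing of small RNA. For miR-6366, miR-3963 and miR-8110 no targets or functions are given here, since their names rest mainly on sequencing. The array reads a miRNA by a dye added to its 3′ end and by DNA probes that pair with the 3′ part of the strand. Brightness depends on how well a probe holds its target as well as on the amount of RNA, so a share of signal below is a share of light and not of molecules.

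The mature sequences are shown because the array can see these entries only through their 3′ parts, while the seed decides how they would be grouped as regulators. They are RefSeq's on GRCm38.p6, written 5′ to 3′ with the seed in capitals.
miR-6366: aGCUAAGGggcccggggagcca
miR-3963: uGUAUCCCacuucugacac
miR-8110: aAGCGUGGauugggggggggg
miR-5100: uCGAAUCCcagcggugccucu

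The strand of miR-6366 lies at chr16:18165093-18165114 on the minus strand, that of miR-3963 at chr3:151023839-151023857 on the minus strand, that of miR-8110 at chr8:89024791-89024811 on the plus strand and that of miR-5100 at chr11:60728698-60728718 on the plus strand, all on GRCm38.p6. The hairpin of miR-5100 lies within the protein-coding gene Mief2. The other hairpins overlap no gene other than their own entry in the RefSeq table of the same build, and their nearest protein-coding genes are Rtn4r for miR-6366, Adgrl4 for miR-3963 and Sall1 for miR-8110. No seed was shared, either among the 4 or with any other of the 1679 mature names in that table, so by seed each entry stands alone. miR-8110 ends in a run of 10 G, and it was the single name of the 1679 to hold GGGGGGGG. miR-5100 was the single name to hold UCGAAUCC, letters that also occur in the T arm of many tRNAs. No tRNA sequence was set against the probes here.

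Each entry was read by a pair of probes that differ by 1 base at the 3′ end. They are printed so that the readings of a pair can be compared. The probes of a pair share all their other bases, so their agreement cannot show which RNA was bound. The base that the longer probe adds is in capitals.
miR-6366, shorter probe: tggctccccgg
miR-6366, longer probe: tggctccccggG
miR-3963, shorter probe: gtgtcagaagtggga
miR-3963, longer probe: gtgtcagaagtgggaT
miR-8110, shorter probe: cccccccccc
miR-8110, longer probe: ccccccccccA
miR-5100, shorter probe: agaggcaccgctg
miR-5100, longer probe: agaggcaccgctgG

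All 8 probes pair with the last bases of the mature strand, from base 11 or 12 in miR-6366 and miR-8110, base 4 or 5 in miR-3963 and base 8 or 9 in miR-5100. The seed of miR-6366, of miR-8110 and, with its shorter probe, of miR-5100 is therefore not read at all. The median share of G and C in the 8 probes was 76.6%, against 57.1% in the 852 probes of the other tested miRNAs. The probes of miR-6366, miR-8110 and miR-5100 lay above that median, at 69.2% to 100%, and those of miR-3963 below it, at 53.3% or less. By length, the probes of miR-3963 had 15 and 16 bases and those of the other entries 10 to 14, against a median of 15 in the 852. A run of at least 8 C occurred in no more than 2 of the 4415 probes of the array, both of them for miR-8110. The stretch each probe pairs with was found in 1 of the 1679 mature names and in 1 of 1005 hairpins, its own in each case. The files list all 8 probes as unmapped on mm9, as they do 60.8% of all probes, so no position of a probe is given.

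Between 378 and 458 miRNAs were detected per array, 396, 456 and 432 in the GLE and 458, 387 and 378 in the model tumours. The 75th percentile of the signal over the 636 probes detected on all arrays, by which each array was scaled, was 203, 364 and 241 intensity units in GLE replicates 1 to 3, against 313, 231 and 211 in model replicates 1 to 3. Per the position codes in the files, the GLE arrays lay in row 1 and the model arrays in row 2 of a single slide, so row and treatment cannot be told apart. Arrays with the same replicate number shared a column: replicate 1 in column 1, replicate 2 in column 3 and replicate 3 in column 4. The hepatocyte miRNA miR-122-5p was detected on 1 of 3 GLE arrays and 1 of 3 model arrays. The other hepatocyte markers were detected more widely, miR-192-5p and miR-148a-3p on all 6 arrays and miR-194-5p on 3 GLE and 2 model arrays. The epithelial miRNA miR-200c-3p was detected on 0 of either group, and miR-205-5p on 0 GLE arrays and 1 model array. Outside the marker list, miR-200a-3p and miR-200b-3p were among the tested miRNAs. The blood cell, endothelial and mesenchymal markers miR-142a-3p, miR-126a-3p and miR-199a-3p were detected on all 6 arrays. So were the skeletal muscle markers miR-1a-3p, miR-133a-3p and miR-206-3p. Of 18 such cell type markers 14 were tested, and 10 of these had the higher mean in GLE tumours and 4 the lower, with 0 past the test described below.

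Together the 4 entries gave about as much light as the other 384 tested miRNAs combined. Their share of the summed signal was 49.3%, 47.9% and 49.6% in the GLE and 46.7%, 50.5% and 55.7% in the model tumours. The GLE values sat within the span of the model values, and the highest share was that of model replicate 3. The mean over all 6 arrays was 49.9% ± 3.12 (SD, n = 6), of which miR-6366 alone gave 36.7%, miR-3963 9.27%, miR-8110 2.41% and miR-5100 1.57%. The one non-member among the first 5 was miR-21a-5p, a growth-promoting miRNA well known in tumours, at rank 3 with 7.98%. Just below miR-5100 came miR-494-3p at 1.40%, let-7a-5p and let-7c-5p at 1.38% each, let-7b-5p at 1.33% and miR-29a-3p at 1.28%, so the step from the entries to the rest is small.

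**Figure D1:**
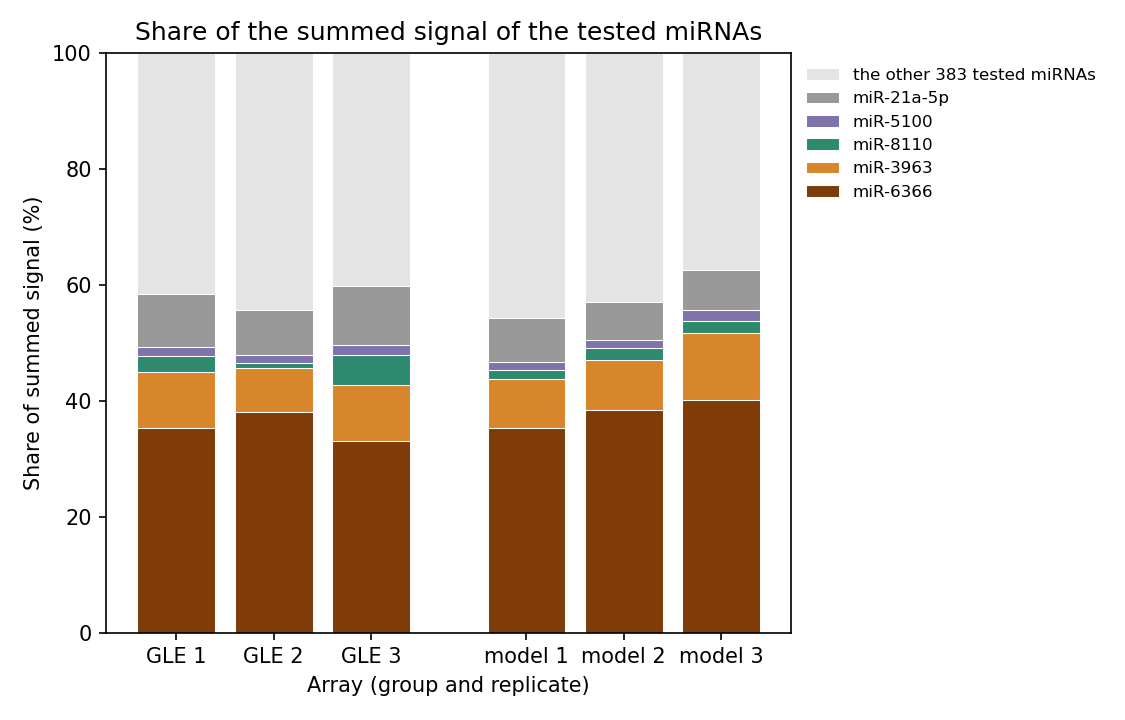
Share of the summed signal of the 388 tested miRNAs (vertical axis, percent) on each array (horizontal axis, GLE replicates 1 to 3, then model replicates 1 to 3), stacked by miRNA. The 4 coloured entries take 46.7% to 55.7% of every bar and miR-6366 alone 33.1% to 40.1%, while the band of miR-8110 is widest in GLE replicate 3 at 5.28% and narrowest in GLE replicate 2 at 0.930%.

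Other late-numbered names are given beside the 4 as a description, since the 4 were chosen for their signal. The array carried 932 other miRNAs with a number of 3000 or above, of which 139 were tested. Those 139 together gave 8.15% of the summed signal, and the brightest of them, miR-3968, gave 0.877%. A list of 15 long-known abundant miRNAs, such as the let-7 family and miR-16-5p, had 14 tested members that gave 19.5%.

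miR-6366 was the brightest miRNA on every array. Its signal was 71597, 129551 and 77443 intensity units in GLE replicates 1 to 3, against 98529, 80704 and 87131 in model replicates 1 to 3. GLE replicate 2 was the highest and GLE replicate 1 the lowest, and the groups overlapped. After scaling, its log2 level (relative to each array's 75th percentile) was 8.34, 8.38 and 8.21 in the GLE and 8.19, 8.33 and 8.58 in the model tumours. GLE replicate 2 was no longer apart, and model replicate 3 was the highest. Its share of signal was 35.3%, 38.0% and 33.1% in GLE tumours, against 35.3%, 38.4% and 40.1% in model tumours. The deposited spots of miR-6366 were bright without reaching the scanner's limit, since 0 of the 56430 spots that are not controls were marked as saturated.

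miR-3963 ranked 2 or 3 on every array, changing places with miR-21a-5p. Its signal was 19639, 25817 and 22399 units in GLE tumours, against 23665, 18127 and 25405 in model tumours. The highest and the lowest value differed by 1.42-fold, and the groups overlapped. Its scaled log2 level was 6.46, 6.01 and 6.40 in GLE tumours, against 6.10, 6.15 and 6.77 in model tumours. Here GLE replicate 2, with the highest unscaled signal, became the lowest of the 6, and model replicate 3 was the highest.

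miR-5100 ranked between 5 and 9. Its signal was 3301, 4671 and 3779.6 units in GLE tumours, against 3927, 3034 and 4216 in model tumours, and the groups overlapped. Its scaled log2 level was 3.49, 3.16 and 3.45 in GLE tumours, against 3.13, 3.18 and 3.82 in model tumours. As for miR-3963, model replicate 3 stood above the other 5 arrays.

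miR-8110 was the entry that differed most between tumours. Its signal was 5506, 3169 and 12341 units in GLE tumours, against 4333, 4182 and 4354 in model tumours. The model tumours were close together, whereas the GLE tumours held both the highest and the lowest value of the 6. Its scaled log2 level was 4.76, 3.12 and 5.68 in GLE tumours, against 3.79, 4.18 and 4.37 in model tumours. Its rank by brightness was 4, 15 and 4 in GLE tumours, against 7, 4 and 4 in model tumours.

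**Figure D2:**
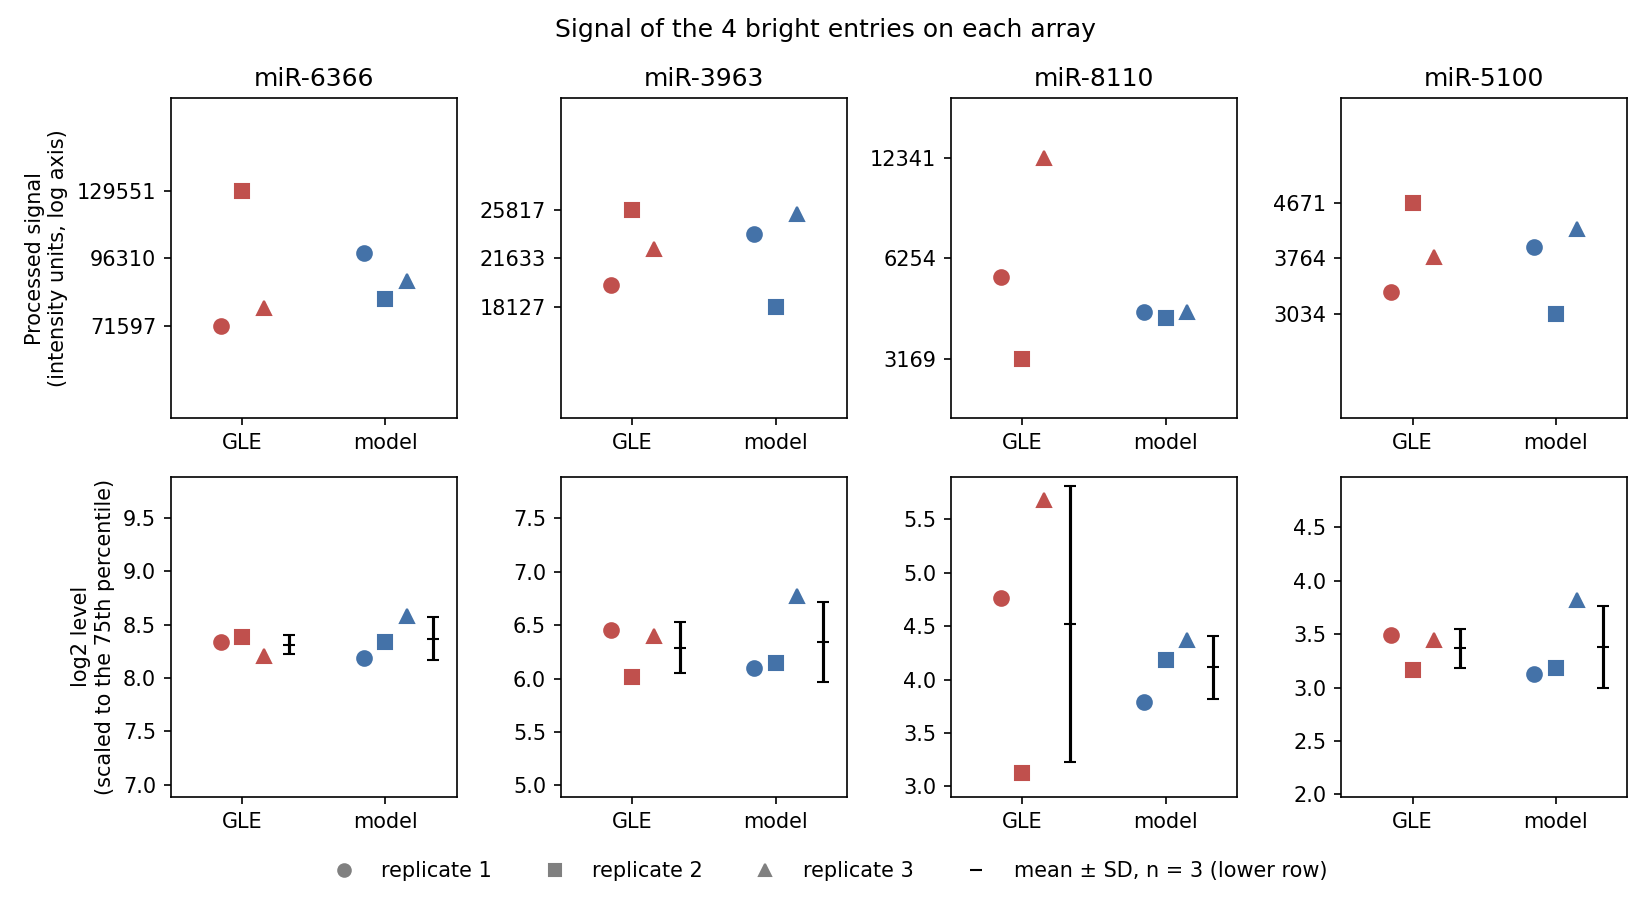
Signal of the 4 entries on each array, with GLE left of model. The upper row gives the processed signal (intensity units, log axis with ticks at the lowest value, the highest value and midway between them), and the lower row the scaled log2 level with mean and SD bars (n = 3). The 2 groups overlap for every entry, and miR-8110 in GLE tumours, from 3.12 to 5.68, has the longest bar.

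The comparison of GLE with model tumours asks whether the agent altered the miRNA content of the tumours. None of the 4 entries passed the test. By limma's moderated test with Benjamini-Hochberg adjustment over all 388 miRNAs, 0 miRNAs (0%) passed an adjusted p of 0.05, and 6 (1.55%) had an unadjusted p under it, none of them among the 4. The level of miR-6366 averaged 8.31 ± 0.089 in the GLE and 8.37 ± 0.20 in the model tumours (log2, SD, n = 3 each). Its difference of −0.058 ± 0.17 (log2, SE), or 0.961-fold with a 95% interval of 0.722 to 1.28, had an adjusted p of 0.961 by limma. This is the narrowest interval of the 4, and differences within its bounds are not excluded with 3 arrays a group. It is not adjusted over the 388 miRNAs, so it does not give the smallest difference that the test could call.

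miR-3963 averaged 6.29 ± 0.24 in the GLE and 6.34 ± 0.37 in the model tumours (log2, SD, n = 3 each). That is 0.964-fold with a 95% interval of 0.649 to 1.43, and the limma adjusted p was 0.963. miR-5100 averaged 3.37 ± 0.18 in the GLE and 3.38 ± 0.38 in the model tumours (log2, SD, n = 3 each). Its fold of 0.992 had a 95% interval of 0.675 to 1.46 and a limma adjusted p of 0.980. Neither difference was as large as its own standard error.

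miR-8110 averaged 4.52 ± 1.30 in the GLE and 4.11 ± 0.29 in the model tumours (log2, SD, n = 3 each). The difference of 0.41 ± 0.60 (log2, SE), or 1.33-fold with a 95% interval of 0.50 to 3.52, had an adjusted p of 0.946 by limma. The sign of that difference rests on single arrays. Without GLE replicate 3 it was −0.17, and without GLE replicate 2 it was 1.11 with a limma adjusted p of 0.0798. Differences lay below 0 for 3 of the 4 entries, against 190 of the 388 tested miRNAs (49%), and without any scaling those 3 lay above 0, at 0.017 for miR-6366, 0.023 for miR-3963 and 0.063 for miR-5100. Values that did not overlap between the groups were found for 0 of the 4 entries and 26 of the 388 (6.7%), of which 8 (2.06%) were lower and 18 (4.64%) higher in GLE tumours.

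No share of signal, a measure that does not depend on the scaling between arrays, passed the exact permutation test between the groups. miR-6366 gave 35.5% ± 2.45 of the light in the GLE and 37.9% ± 2.43 in the model tumours (SD, n = 3 each, two-sided exact permutation p = 0.3), a difference of −2.45 percentage points that is about the size of either SD. miR-3963 gave 8.94% ± 1.19 in the GLE and 9.59% ± 1.81 in the model tumours (exact permutation p = 0.8, n = 3 each). miR-5100 gave 1.54% ± 0.15 in the GLE and 1.60% ± 0.30 in the model tumours (exact permutation p = 0.8, n = 3 each). For miR-8110 the shares were 2.97% ± 2.18 in the GLE and 1.85% ± 0.26 in the model tumours (exact permutation p = 0.5, n = 3 each), the one entry with a higher mean in GLE tumours. The 4 together gave 48.9% ± 0.92 in the GLE and 51.0% ± 4.51 in the model tumours (exact permutation p = 0.7, n = 3 each). Adjusted over these 5 comparisons every p was 0.8, and with 3 against 3 no exact p can go below 0.1.

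By their median difference, long-known abundant miRNAs and late-numbered names were near level as well. Of the 14 tested members of the abundant list, 7 had a positive difference, with a median of −0.0037 (log2) and 0 past the test. Of the 139 other late-numbered names, 56 had a positive difference, with a median of −0.046 and 0 past the test. Over all 388 tested miRNAs 198 had a positive difference, and the median difference was 0.0078. Values did not overlap between the groups for 3 of the 14 and 5 of the 139, against 26 of the 388 (6.7%). The brightest of the other names, miR-21a-5p, differed by 0.39 ± 0.18 (log2, SE).

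The probes of a pair differed in brightness by an amount that belonged to the pair and hardly changed between tumours. In miR-5100 the longer probe was 6.09-fold brighter than the shorter one on average, with a range over the 6 arrays of 5.86 to 6.20. Its probes gave means of 6563 and 1079.7 units, so the 1 added base went with most of the signal. In miR-3963 the longer probe was 2.46-fold brighter (range 2.43 to 2.49), with means of 31995 and 13023 units. In miR-6366 it was the shorter probe that was brighter, by 2.22-fold (range 2.09 to 2.30), with means of 124997 and 56655 units. In miR-8110 the pair was nearly equal, at 1.03-fold (range 1.02 to 1.04), with means of 5727 units for the longer and 5568 for the shorter probe.

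For 238 tested miRNAs read by a pair, both probes were detected on every array. Over these 238 the brighter probe exceeded the dimmer one by a median of 1.65-fold, and the 90th percentile was 4.30-fold. The longer probe was the brighter in 204 pairs and the shorter in 34, so miR-6366 belongs to the smaller group and miR-5100 ranks 14 by that ratio. The log2 ratio within a pair varied over the arrays with an SD of 0.048 in miR-6366, 0.013 in miR-3963, 0.0074 in miR-8110 and 0.030 in miR-5100, against a median of 0.065 over the 238 pairs. Counted from the smallest such SD, miR-8110 ranked 3 of the 238. Its low value in GLE replicate 2 and its high value in GLE replicate 3 were thus given alike by both of its probes.

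The GLE minus model difference was nearly the same by either probe of a pair. For miR-6366 it was −0.058 by both, and for miR-3963 it was −0.046 by the shorter and −0.059 by the longer probe. For miR-8110 it was 0.40 by the shorter and 0.41 by the longer, and for miR-5100 −0.024 by the shorter and −0.00023 by the longer. The repeated spots of a probe, 12 to 15 of them used per array, had coefficients of variation of 0.54% to 8.31%. Probes and spots share a tumour and an array, so they show how finely each array was read and do not add to the 3 tumours of a group.

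**Figure D3:**
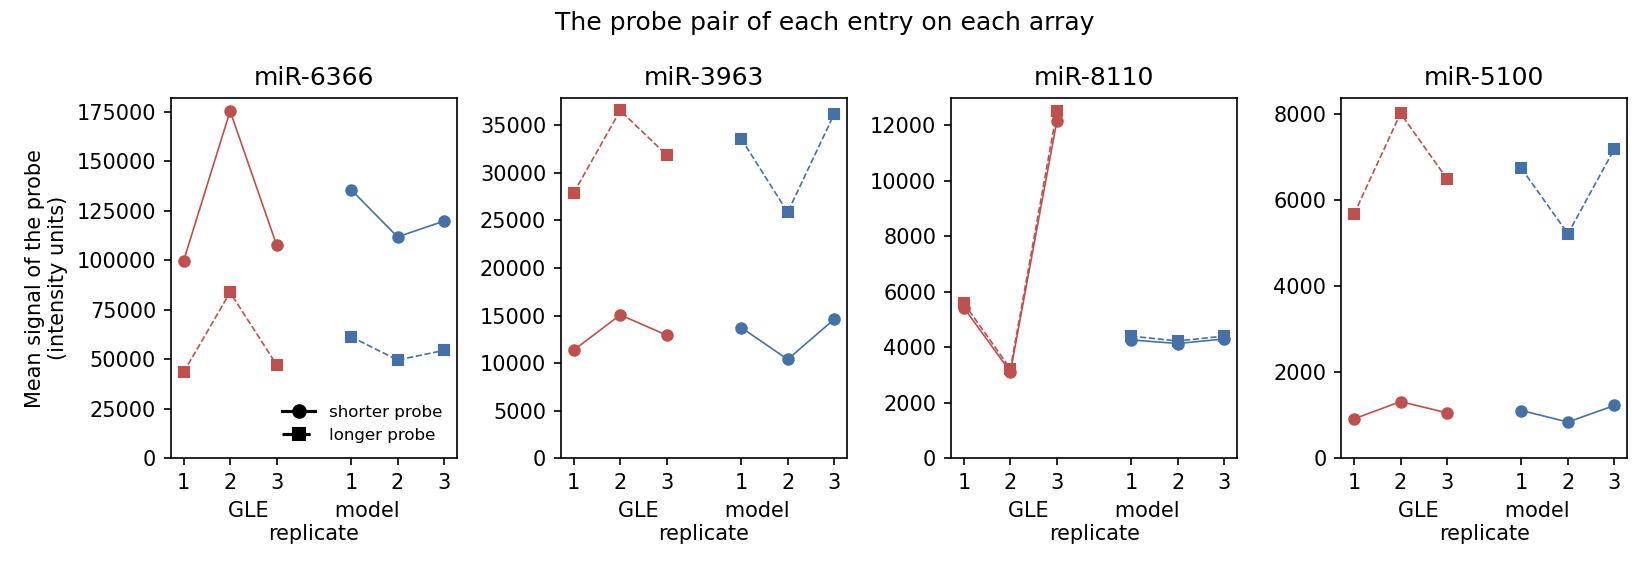
Mean signal (vertical axis, intensity units, from 0) of the shorter and the longer probe of each entry on GLE replicates 1 to 3 and then model replicates 1 to 3, with lines that only guide the eye. The 2 lines run in parallel in every panel, 6.09-fold apart in miR-5100 and almost on each other in miR-8110, with the shorter probe above in miR-6366.

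After scaling, the spread between tumours set miR-6366 and miR-8110 at opposite ends of the 4. The SD of the scaled log2 level, pooled within the groups, was 0.15 for miR-6366, 0.31 for miR-3963, 0.94 for miR-8110 and 0.30 for miR-5100. The median over all 388 tested miRNAs was 0.28, and over the 40 brightest it was 0.23. Among those 40 the largest spread was that of miR-8110, which ranked 9 of the 388, while miR-6366 ranked 321. From the lowest to the highest array the scaled level ranged 5.89-fold in miR-8110, 1.69-fold in miR-3963, 1.61-fold in miR-5100 and 1.31-fold in miR-6366. The spread of miR-8110 lay on the GLE side, with an SD of 1.30 in the GLE and 0.29 in the model tumours. Over all 388 tested miRNAs the median SD was also larger in the GLE tumours, at 0.33 against 0.17 in the model tumours. A test of these differences in spread was not run. These spreads rest on few arrays: without GLE replicate 2 the pooled SD of miR-8110 was 0.45, and without model replicate 3 that of miR-6366 was 0.093, of miR-3963 0.20 and of miR-5100 0.15. With each array left out in turn, miR-8110 kept the largest and miR-6366 the smallest scaled SD of the 4. Without any scaling miR-6366 did not have the smallest SD: its 0.35 lay above the 0.23 of miR-3963 and the 0.26 of miR-5100. That order turned in its turn without GLE replicate 2, where the unscaled SD was 0.13, against 0.22 for miR-3963 and 0.23 for miR-5100.

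With all 6 arrays, scaling went with a smaller spread in miR-6366 and a larger one in the other 3 entries. Without any scaling the pooled SD of miR-6366 was 0.35, larger than the scaled 0.15, as in most of the tested miRNAs. For miR-3963 the unscaled SD of 0.23 was smaller than the scaled one, and so were the 0.70 of miR-8110 and the 0.26 of miR-5100. The same held for 129 of the other 384 miRNAs. Over all tested miRNAs the median SD was 0.38 without scaling. For each entry the order of the 2 SDs turned when 1 array was left out, a check added after the values were seen. Without model replicate 3 the scaled SD was 0.20 for miR-3963, against 0.23 unscaled, and 0.15 for miR-5100, against 0.26 unscaled. Without GLE replicate 2 the scaled SD was 0.17 for miR-6366, against 0.13 unscaled, and 0.45 for miR-8110, against 0.48 unscaled.

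**Figure D4:**
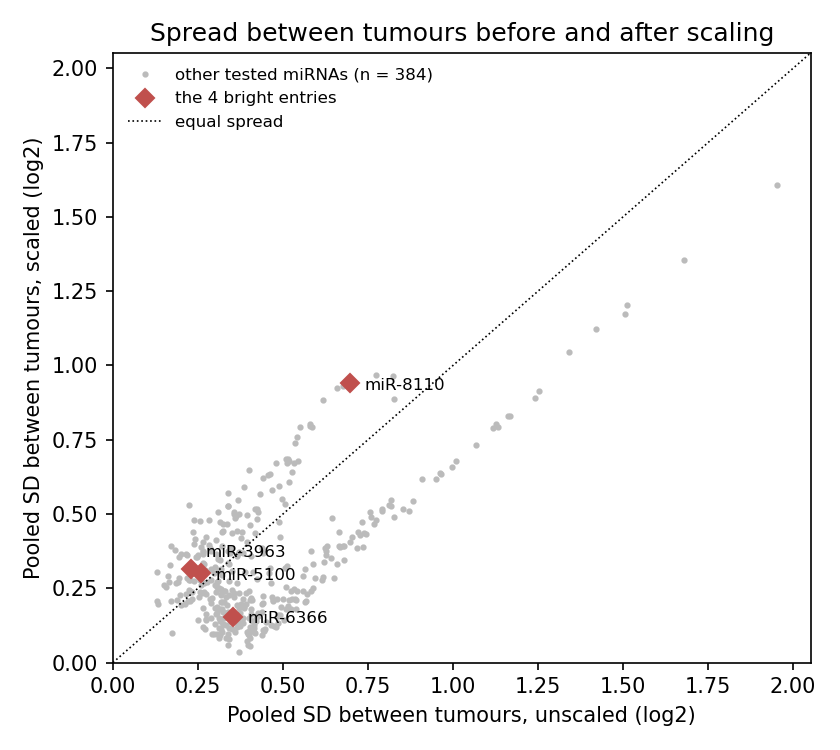
Spread between tumours of each tested miRNA as the pooled SD of its log2 signal before scaling (horizontal axis) and after scaling (vertical axis), with the 4 entries as red diamonds, the other 384 miRNAs as grey points and a dotted line where both are equal. miR-6366 lies below the line at 0.35 and 0.15, whereas miR-8110, miR-3963 and miR-5100 lie above it, miR-8110 at 0.70 and 0.94.

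With about 50% of the light in 4 names, the entries weigh heavily on any scaling by total signal. Counting them raised the log2 total of an array by 0.98, 0.94 and 0.99 in GLE replicates 1 to 3, against 0.91, 1.01 and 1.17 in model replicates 1 to 3. The mean rise was 0.97 in the GLE and 1.03 in the model tumours, a shift of −0.062 between the groups. Leaving the entries out moved the differences of the other 384 miRNAs by a median of −0.062, since values at the floor do not follow the scaling. The shift between the groups rests on model replicate 3, without which it was 0.0087, an alternative added after the values were seen. The median difference of the other 384 miRNAs was −0.031 when the total included the entries and −0.091 when it did not, and 28 of the 384 changed sign.

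The 75th percentile was moved far less. The 8 probes of the entries, counted among the 636, raised its log2 by 0.070, 0.106 and 0.096 in the GLE and by 0.111, 0.070 and 0.032 in the model tumours. Leaving them out moved the median difference of the other 384 miRNAs to 0.029, against 0.0099 with them, and 6 of the 384 changed sign. Without model replicate 3 the shift of the percentile between the groups was 0.00025, against 0.020 with it. The mean of the log2 values rose by 0.072 to 0.079 on every array, and the rise differed between the groups by 0.00011. By size, the entries moved the total most, the percentile less and the mean of logs by nearly the same amount on every array. Counts at the unadjusted threshold did not follow that order. Leaving the entries out moved the count at an unadjusted p under 0.05 by limma to 13, against 6 with them, under the 75th percentile, and to 4, against 6 with them, under the total.

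The order of the entries carried over to the authors' deposited table, which is on a log2 scale. In the authors' deposited table miR-6366 was the highest of all miRNAs in every column, at 15.58 in the 3 GLE tumours and in model replicates 1 and 2, and at 15.69 in model replicate 3. For miR-3963 the authors' deposited table gave 13.64 in GLE replicates 1 and 3 and in all 3 model tumours, and 13.24 in GLE replicate 2. The equal values did not follow rank alone. For miR-3963 the value was 13.64 at rank 2 in GLE replicate 1 and at rank 3 in GLE replicate 3. At rank 3 in GLE replicate 2 it was 13.24. miR-6366 held rank 1 in every column, yet its value in model replicate 3 differed from the rest. The origin of the equal values was not tested, and the spread of the brightest names cannot be read from such values. For miR-8110 the authors' deposited table gave 11.41, 10.31 and 13.08 in the GLE and 10.85, 11.41 and 11.41 in the model tumours. Equal values occurred here too, so its spread is not read from them either. The lowest was again that of GLE replicate 2 and the highest that of GLE replicate 3.

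Among the other tested miRNAs, those whose log2 levels ran most like each entry were found by Pearson's correlation over the 6 arrays, which share 1 scaling factor each. These are the highest and lowest of 387 values for each entry and are given as a description. For miR-6366 the closest were miR-6368 (r = 0.97), miR-6995-5p (0.90) and miR-7671-3p (0.85), and the least alike was miR-5121 (−0.87). For miR-3963 they were miR-712-5p, miR-5107-5p and miR-5100 (0.99 each), and miR-5100 in turn ran closest to miR-652-5p (1.00), miR-3963 (0.99) and miR-5107-5p (0.98). The least alike to both was miR-132-3p, at −0.94 for miR-3963 and −0.89 for miR-5100. miR-3963 and miR-5100 share no seed and no probe sequence. miR-6366 and miR-8110 ran with neither of them as closely, at 0.61 and 0.57 with miR-3963, and 0.68 and 0.50 with miR-5100.

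The swings of miR-8110 were shared by other names. Its level ran closest to miR-211-3p (r = 1.00), miR-680 (0.99) and miR-292b-3p (0.99), and least like miR-30e-5p (−0.99), a member of the miR-30 family. The signal of miR-211-3p was 610.3, 453 and 1356 units in GLE tumours, against 544, 521 and 524 in model tumours. That of miR-680 was 62.3, 51.5 and 139 units in GLE tumours, against 57.6, 54.6 and 54.6 in model tumours. Both were lowest in GLE replicate 2 and highest in GLE replicate 3, as miR-8110 was, while their model tumours lay close together. miR-292b-3p lay near the floor of detection, at 16.9 to 33.9 units. miR-30e-5p had 166, 419 and 151 units in GLE tumours, against 325, 210.0 and 181 in model tumours, so it was highest where miR-8110 was lowest.

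**Figure D5:**
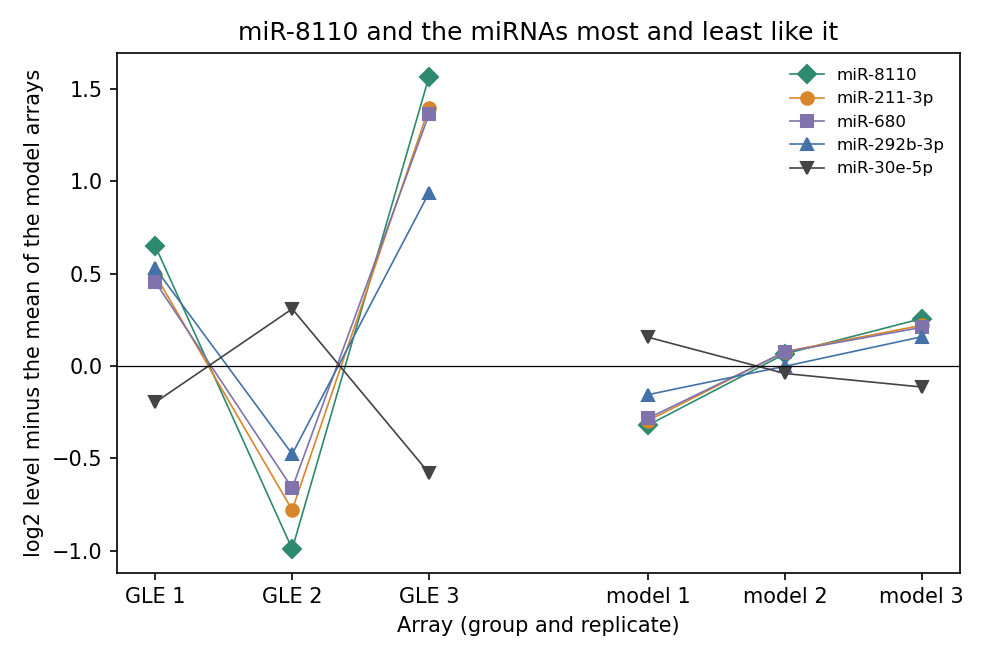
Scaled log2 level minus the mean of the 3 model arrays (vertical axis) on GLE replicates 1 to 3 and then model replicates 1 to 3 (horizontal axis) for miR-8110, the 3 tested miRNAs most like it and the one least like it, with lines that only guide the eye. miR-8110, miR-211-3p, miR-680 and miR-292b-3p are lowest in GLE replicate 2 and highest in GLE replicate 3, and miR-30e-5p runs the other way.

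The sequences of the closest names are shown because miR-211-3p and miR-680 have a run of G near the 3′ end in common with miR-8110, and miR-292b-3p does not. The run is read by a run of C in their probes. The seed is again in capitals, and in the probes the base added by the longer one.
miR-211-3p: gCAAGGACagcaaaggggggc
miR-680: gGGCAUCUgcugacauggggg
miR-292b-3p: aAGAGCCCccaguuugaguau
miR-211-3p, longer probe: gcccccctttgcT
miR-680, second probe: cccccatgtcA

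GGGGG occurred in 40 of the 1679 mature names (2.38%), of which 14 were tested. The letters were searched on the mature strand, and an overlap of the run with itself was counted once per name. Apart from miR-8110, 14 tested miRNAs had a probe with at least 5 C in a row, a list chosen after the values were seen and given with no test. Between GLE replicate 3 and GLE replicate 2 their log2 levels differed by a median of 0.97, and 11 of the 14 (78.6%) were higher in replicate 3, as were 241 of all 388 tested miRNAs (62.1%). The 14 include miR-211-3p and miR-680, which prompted the list, and without them the median of the remaining 12 was 0.70, with 9 higher in replicate 3. These 12 also hold miR-652-5p, the closest to miR-5100, and miR-6995-5p, among the closest to miR-6366. Their differences between replicates 3 and 2 were 0.21 and −0.23, the latter the lowest of the 14. The run of C was thus not particular to names that ran with miR-8110. The same difference was 2.56 in miR-8110 and had a median of 0.19 over the other 373 tested miRNAs. Between GLE and model tumours the 14 differed by a median of 0.074, against 0.0039 in the other 373.

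Values of the arrays themselves differed between those tumours too. GLE replicate 2 had the highest 75th percentile of the 6 arrays and the lowest signal of the hybridisation spike-ins, synthetic RNAs added before hybridisation, at 1335 units. It was 2818 units for GLE replicate 1 and 1814 for GLE replicate 3, against 4648, 2647 and 1757 for the model tumours. The labelling spike-ins, added before the dye reaction, ran from 1154 to 1282 in the GLE and from 1092 to 1172 in the model tumours. Their part in the values of miR-8110 was not tested.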

How the data were processed

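Tumour miRNA was measured on 6 one-colour Agilent arrays, 3 GLE and 3 model mice, grouped by the labels. Per the file headers, Agilent Feature Extraction 10.7.1.1 (also in the submitters' processing notes) subtracted background and a spatial trend. The deposited spot values are linear intensity with no normalisation across arrays. The authors' deposited table is on a log2 scale by comparison with the arrays (Spearman correlation across miRNAs 0.967 to 0.976, slope 1.09 to 1.17). Its making, centring and filtering are not given in the sources used here. Its column medians were −3.20, −3.32 and −3.27 in GLE replicates 1 to 3, against −3.32, −3.17 and −3.13 in model replicates 1 to 3, each the lowest value of its column.

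Control spots and the 1401 to 1883 outlier-flagged spots of an array were dropped, and a probe's remaining spots averaged. A probe was detected where over a share of 0.5 of its spots were well above background. Signals were divided by the array's 75th percentile of the 636 probes seen on every array, floored at −4.25 (log2) and logged. A miRNA's value averages those of its probes that were detected throughout 1 group or both, which left 388 of 1881 miRNAs. Its share is its part of their summed signal. The 7 negative control probes averaged −2.00 to 1.68 units. Groups were compared with limma 3.58.1 in R 4.3.3 (two-sided, moderated by eBayes with 3.05 prior and 4 residual degrees of freedom, Benjamini-Hochberg over all 388) after checks on simulated data. Shares were compared by exact permutation over all 20 relabelings. Precision is limited by the number of arrays, and the median 95% half-width of a difference was 0.54 (log2).

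The 4 entries, the lists, the markers and the tests were chosen with earlier results of these data known. Named miRNAs are the 4, the 6 next brightest, and for each entry the 3 most and the 1 least correlated. The cell type markers named in the text come from the marker list. Any other name, such as miR-3968 or miR-200a-3p, was picked after its values were seen. Probes and sequences were matched to RefSeq tables of GRCm38.p6 by miRNA name, where 336 of the 388 tested names had a mature sequence.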

Additional observations from a re-analysis of the deposited data

How the results depend on the processing

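With 3 arrays a group, 0 miRNAs passed under each of 16 alternatives that keep all arrays (background, scaling, filters, spots, probes, the authors' deposited table, an intensity trend), while 3 to 17 had an unadjusted p under 0.05, against 6. Same-numbered samples did not deviate together (r of −0.62, −0.18 and 0.37), so the numbers were not taken as pairs. The fit with the replicate number as a block, which leaves 2 residual degrees of freedom, gave 0 calls and the 17. Since same-numbered arrays shared a slide column, that block is also a block by column. Leaving out 1 array gave 0 to 2 calls, the 2 without GLE replicate 2, and 0 to 107 at the unadjusted threshold. The 4 entries had limma adjusted p from 0.0798 (miR-8110, without GLE replicate 2) upward over all 22 alternatives.

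The sign of the differences was not stable. miR-5100 was 0.0075 with the percentile taken without the entries' probes, 0.063 without scaling and 0.053 in the authors' deposited table. Without scaling miR-6366 was 0.017 and miR-3963 0.023, and under quantile normalisation miR-8110 was −0.056. Leaving out 1 array gave −0.15 to 0.049 for miR-6366, −0.17 to 0.16 for miR-3963, −0.17 to 1.11 for miR-8110 and −0.14 to 0.21 for miR-5100. For the shares it gave differences of −1.21 to 0.39 percentage points for miR-3963, −0.025 to 2.15 for miR-8110, −0.15 to 0.11 for miR-5100 and −4.15 to 0.34 for the 4 together, while miR-6366 stayed negative (−3.77 to −1.26). The miR-3963, miR-5100 and combined extremes above 0 came without model replicate 3, and the miR-8110 values below 0 without GLE replicate 3. The cause of these turns was not tested beyond the arrays named.

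Leaving out 1 array gave spreads of 0.093 to 0.18 for miR-6366, 0.20 to 0.35 for miR-3963, 0.45 to 1.08 for miR-8110 and 0.15 to 0.34 for miR-5100. It gave shifts of −0.12 to 0.0087 for the weight on the total and 0.00025 to 0.040 for that on the percentile. Under quantile normalisation the spread of miR-3963 was 0.052. The spread of miR-6366 was 0.35 without scaling, 0.31 with labelling spike-in scaling, 0.28 with the percentile over all probes and 0 under quantile normalisation, which fixes the value of the top rank. With labelling spike-in scaling it lay above the 0.22 of miR-3963 and the 0.24 of miR-5100, as it did without scaling. With normexp background correction the mean share of miR-6366 was 33.3% and that of the 4 together 45.4%, and with the brightest probe that of miR-5100 was 1.91%. A slide or scan block was not run, since the files give 1 slide and 1 scan.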
